A study of Mus musculus with 20 samples.

Results

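The genes described here are 32 markers of the cells that build brain blood vessels, measured in the hippocampus of Qtrt1-/- and wild-type mice. They were taken by name from a count table of 18054 genes, and all 32 were listed in it. By role they comprise 5 junction and adhesion genes, 4 receptor kinases, 7 transporters, 6 surface or secreted endothelial genes, 7 pericyte genes and 3 smooth muscle genes. Ribosome profiling sequences the stretches of mRNA that ribosomes shield from nuclease (footprints). The paired input libraries hold cytoplasmic RNA that was not digested. Knockout animals were Qtrt1-/-, without the catalytic subunit of the enzyme that inserts queuosine into tRNAs, and comprised 3 females and 2 males. Wild-type animals likewise comprised 3 females and 2 males. Each of the 10 animals gave 1 footprint library and 1 input library, 20 in all. Knockout females were 6 months and 21 days old, as were wild-type females 2 and 3, and wild-type female 1 was 6 months and 22 days old. In each genotype male 1 was 6 months and 18 days old and male 2 was 5 months and 16 days old, so age moved with sex. The labels name no strain, cell isolation or treatment, and the knockout is not limited to a cell type by them.

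Brain endothelial cells are joined by tight junctions and carry transporters that control what passes between blood and nerve tissue, which makes them the blood-brain barrier. Pericytes wrap capillaries and share their basement membrane, and smooth muscle cells ring arterioles and set their width. Queuosine is a modified base in the anticodons of tRNAs that carry tyrosine, histidine, asparagine or aspartate, which read the 8 codons that end in U or C for these amino acids.

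Footprint libraries held between 5357810 and 15518000 counts and input libraries between 9000660 and 13637400. Qtrt1 had 1 to 10 footprint counts in the 5 knockout libraries, against 28 to 94 in the 5 wild-type libraries. The 32 genes together took 0.219 to 0.252% of footprint counts in knockout libraries, against 0.192 to 0.260% in wild-type libraries, and in input RNA 0.120 to 0.129% in knockout libraries, against 0.112 to 0.136% in wild-type libraries. A lower level in such bulk tissue can mean fewer cells of a type or less RNA per cell, which cannot be told apart. Markers of neighbouring structures also differed between libraries, and what the tissue pieces held was not measured. Summed markers of the choroid plexus, the secretory epithelium of the ventricles (13 genes), ranged from 3624 to 13592 CPM (counts per unit of scaled library size) in footprints of knockout females, against 792 to 8277 CPM in wild-type females. They ranged from 12080 to 16662 CPM in knockout males, against 14261 to 15062 CPM in wild-type males. Markers of the striatum (12 genes) ranged from 296 to 754 CPM in knockout females, against 595 to 1372 CPM in wild-type females, and lay at 276 to 328 CPM in all 4 male footprint libraries. All 13 choroid plexus genes and all 12 genes of meningeal fibroblasts, the cells of the brain's covering, had positive log2 differences in knockout females, with medians of 1.54 and 0.70 in footprints and 1.46 and 0.46 in input RNA. No gene of these 3 lists was at 0 in any group.

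Levels between genes are compared as footprint CPM per kilobase of coding sequence, with lengths from the GENCODE M21 annotation. Basigin (Bsg), an immunoglobulin-family chaperone of monocarboxylate transporters, stood first with a median of 723 over the 10 footprint libraries (lowest 627, highest 955). By median Cspg5 followed at 168 (141 to 206). Cspg5 encodes neuroglycan C, a proteoglycan known from neurons and glia, while the proteoglycan used as a pericyte marker is Cspg4. Its level, above each of the other 6 pericyte genes in every library, goes against the pericyte label, and medians over the 32 genes are given below with and without it. Next came Pltp, which encodes a phospholipid transfer protein, at 133 (78.1 to 185), and the glucose transporter gene Slc2a1, at 130 (108 to 186). Itm2a, a membrane protein of endothelial cells, followed at 112 (81.8 to 160). The ranges of Cspg5, Pltp, Slc2a1 and Itm2a overlapped, and in knockout males the mean of Pltp (166) was above that of Cspg5 (152), so the order of these 4 genes is not settled by these libraries. The pericyte gene Rgs5, a regulator of G-protein signalling, stood at 68.8 (49.2 to 95.9), and Vtn, the matrix protein vitronectin, at 60.5 (49.5 to 79.1), again with overlapping ranges. Cldn5, the main claudin of the barrier's tight junctions, reached 48.7 (33.4 to 68.1). The receptor kinases lay low, with Flt1 at 6.27, Kdr at 2.46, Tek at 1.38 and Tie1 at 0.628. Smooth muscle actin (Acta2) stood at 13.7, its partner transgelin (Tagln) at 4.60 and the smooth muscle myosin Myh11 last of all at 0.231 (0.0955 to 0.472). The lowest count of any of the 32 genes was 4 in a footprint library and 15 in an input library. Within a group the log2 CPM of the 32 genes had a median SD of 0.24 in footprints and 0.19 in input RNA, against 0.20 and 0.14 over all genes tested.

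The authors' codon tables show where on these mRNAs the footprints lay. They listed 25 mRNAs of 23 of the 32 genes, and all 5317 entries of these mRNAs carried the codon found at that place in the GENCODE M21 coding sequence. How much of a gene's count they placed varied widely. For Cdh5, VE-cadherin of endothelial junctions, the listed mRNA held 99.1% of the gene's footprint counts, for Itm2a 96.0%, for Cldn5 94.3% and for Rgs5 72.1%. For Slc2a1 it held 16.0%, all between codons 173 and 231 of 492. For Bsg it held 0.0592%, so the codon tables say almost nothing on the most abundant of these genes. The 10 mRNAs with at least 400 footprints over all libraries came from Itm2a, Slc2a1, Cldn5, Rgs5, Cdh5, Flt1, Abcb1a, Mfsd2a, Kdr and Esam.

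Footprints were unevenly spread along these coding sequences. The stretches around 6 strong sites of 5 mRNAs are shown because the values below are counted at them. They are the strongest site of the 4 mRNAs with most footprints and 2 sites at queuosine codons, added after their values were seen, in Cldn5 and Abcb1a. Each runs 5′ to 3′ over 11 codons, is taken from the GENCODE M21 transcript (GRCm38), and has the codon of the site in capitals.
Itm2a (codon 222, arginine, chromosome X): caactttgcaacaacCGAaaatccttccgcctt
Cldn5 (codon 199, lysine, chromosome 16): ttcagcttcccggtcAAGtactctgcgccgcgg
Cldn5 (codon 38, histidine, chromosome 16): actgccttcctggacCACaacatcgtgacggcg
Rgs5 (codon 164, lysine, chromosome 1): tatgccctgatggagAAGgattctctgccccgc
Slc2a1 (codon 184, aspartate, chromosome 4): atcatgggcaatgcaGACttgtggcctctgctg
Abcb1a (codon 700, asparagine, chromosome 5): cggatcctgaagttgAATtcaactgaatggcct

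The Rgs5 site held 28.1% of the mRNA's 2212 footprints and the Cldn5 sites at codons 199 and 38 17.6 and 11.8% of 2430. The Slc2a1 site held 14.2% of 2540, the Abcb1a site 10.0% of 848 and the Itm2a site 6.04% of 7197. All 6 sites had footprints in each of the 10 libraries. The sources used here do not say which ribosomal site the listed codon occupies.

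**Figure D1:**
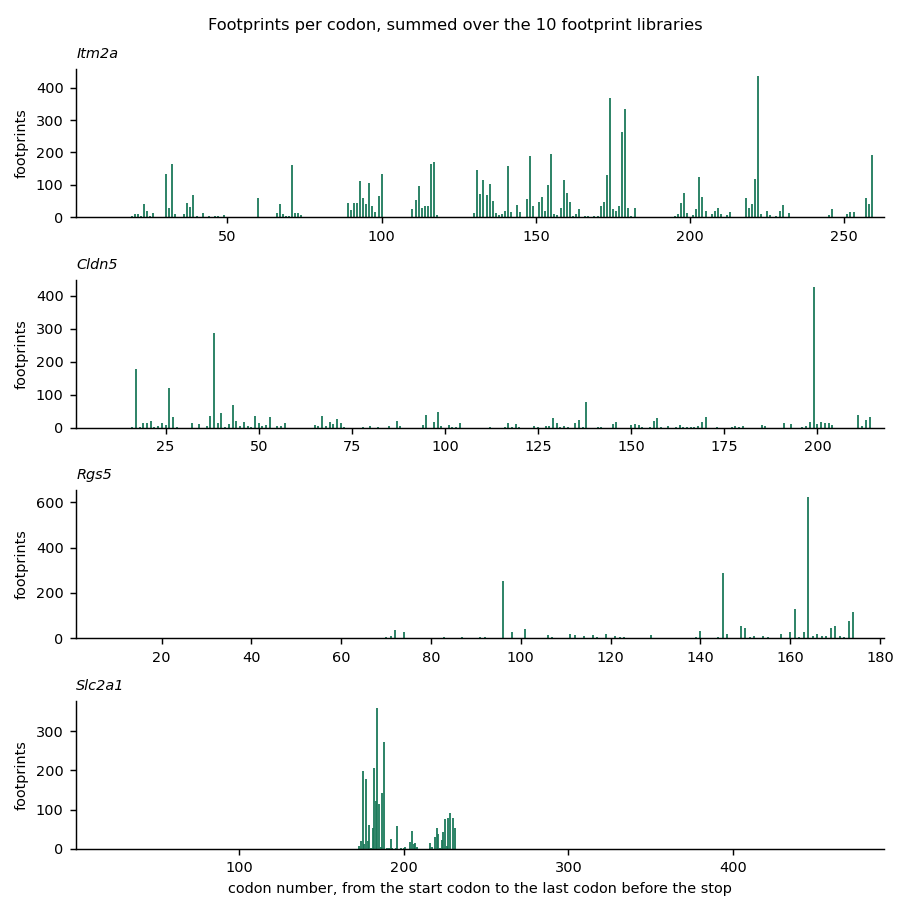
Footprints at each codon of Itm2a, Cldn5, Rgs5 and Slc2a1, summed over the 10 footprint libraries; the x axis is the codon number and the y axis the number of footprints. Itm2a was covered along most of its length, with its highest site at codon 222, whereas Slc2a1 had footprints only between codons 173 and 231.

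Among the 2 strongest sites of each of the 10 well-covered mRNAs, 4 lie at queuosine codons: GAC 184 in Slc2a1, CAC 38 in Cldn5, AAU 700 in Abcb1a and GAC 1127 in Kdr. Their share of the mRNA's footprints is given by library, except for Kdr, which had 0 to 5 footprints per library there and overlapping shares in females. The Slc2a1 site held 9.63, 14.6 and 14.0% in knockout females, against 20.1, 25.3 and 17.5% in wild-type females. Every knockout female lay below every wild-type female. In males it held 14.5 and 8.97% in the knockout, against 10.4 and 12.6% in the wild type, and the genotypes overlapped. The Cldn5 site at codon 38 held 11.3, 14.5 and 7.64% in knockout females, against 7.28, 8.70 and 9.19% in wild-type females. Here the genotypes overlapped, as they did in males, with 13.2 and 17.3% in the knockout, against 13.5 and 15.3% in the wild type. The Abcb1a site, in the efflux pump P-glycoprotein, held 16.4, 9.09 and 11.4% in knockout females, against 7.14, 5.49 and 4.23% in wild-type females. Every knockout female lay above every wild-type female. In males the Abcb1a site held 4.35 and 15.4% in the knockout, against 11.02 and 20.0% in the wild type, with overlap. The female Abcb1a shares rest on 18, 10 and 15 footprints in knockouts, against 5, 5 and 3 in wild-type animals. Their exact 95% binomial intervals ran from 4.45 to 24.6% over knockout females, against 0.880 to 15.9% over wild-type females, for counting error only. Some sites at other codons were also apart in females. AAG 174 in Itm2a held 5.52, 7.47 and 7.17% in knockout females, against 4.04, 4.74 and 3.78% in wild-type females. GAA 145 in Rgs5 held 10.4, 12.1 and 11.6% in knockout females, against 15.4, 18.6 and 16.1% in wild-type females. In Cdh5 the share at GAG 772 was lower and that at AAG 712 higher in every knockout female, from few footprints. GAG 772 had 3, 3 and 2 footprints in knockout females, against 3, 3 and 5 in wild-type females. AAG 712 had 6, 7 and 10 in knockout females, against 3, 1 and 2 in wild-type females. The remaining sites at other codons overlapped. How many codon sites over all mRNAs lie apart in females was not counted. Genotype differences at any of these sites were not tested. Over the whole coding sequences of all 10 well-covered mRNAs the queuosine codons make up 13.4% of codons. Footprints lay only in parts of some of these sequences, such as codons 173 to 231 of 492 in Slc2a1. Well-covered mRNAs with more footprints also weighed more, so the shares below cannot be measured against 13.4%. Queuosine codons held 18.1, 18.5 and 18.0% of footprints in knockout females, against 16.5, 17.9 and 16.3% in wild-type females. Knockout males had 17.3 and 19.5%, against 18.3 and 18.5% in wild-type males. The female groups did not overlap and the male groups did. With each mRNA given equal weight the shares were 16.85, 18.3 and 19.03% in knockout females, against 15.4, 16.86 and 15.0% in wild-type females, and they overlapped by a small margin.

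Knockout females were first compared with wild-type females. In footprints 2 of the 32 genes passed edgeR's quasi-likelihood test at a Benjamini-Hochberg adjusted p under 0.05, both higher, against 7.06% of all 13143 genes tested, 2.81% higher and 4.25% lower. These were Ocln, which encodes the tight-junction protein occludin, and Itm2a. In input RNA Ocln alone passed, also higher, against 3.48% of 14164 genes, 0.748% higher and 2.73% lower. The 32 genes had a median log2 difference of 0.20 in footprints and 0.09 in input RNA, against 0.003 and 0.009 over all genes tested. Without Cspg5 the medians were 0.31 and 0.10. Sums of several further lists did not overlap between these female groups, in 1 or both assays. How often sums of other gene sets part in this way was not counted. Sums of meningeal fibroblast markers and of the 3 smooth muscle genes were higher in every knockout female, in both assays. Of the signalling lists below, the Wnt sum was higher in input RNA (807 to 866 CPM in knockouts, against 759 to 786 CPM). The VEGF sum was too (373 to 395 against 290 to 370 CPM). The PDGF and TGF-beta sum was lower in footprints (210 to 222 against 233 to 254 CPM). Summed neuron markers (10 genes) were 11109.5 to 11769 CPM in footprints of knockout females, against 12699 to 13971 CPM in wild-type females, and in input RNA 6436 to 7070 CPM in knockout females, against 7398 to 8082 CPM in wild-type females. Summed erythrocyte markers (8 genes) were 220.1 to 296 CPM in footprints of knockout females, against 196 to 212 CPM in wild-type females, and in input RNA 410.2 to 553 CPM in knockout females, against 311 to 379 CPM in wild-type females. In input RNA the summed astrocyte markers (10 genes) were lower, at 3931 to 4212 CPM in knockout females, against 4330.4 to 4517 CPM in wild-type females. The sum of 29 other endothelial genes was also lower, at 607 to 631 CPM in knockout females, against 664 to 690.02 CPM in wild-type females. With each gene given equal weight, as mean log2 CPM, both lists overlapped. The other endothelial genes then had 2.99, 3.03 and 3.01 in knockout females, against 2.86, 3.09 and 3.00 in wild-type females. In footprints both sums overlapped. The 22 endothelial genes among the 32 summed higher in both assays. In footprints they had 1665 to 1759 CPM in knockout females, against 1434 to 1608 CPM in wild-type females. Their input sums were 782 to 845 CPM in knockout females, against 681 to 766 CPM in wild-type females. Bsg weighed most in these sums. Its mean was 821 CPM in footprints and 395 CPM in input RNA of knockout females, against 780 and 337 CPM in wild-type females. The part of these other marker lists in the differences of the 32 genes was not tested. At an unadjusted p under 0.05 stood 14 of the 32 in footprints and 10 in input RNA, among 3367 and 2851 of all genes. Most of the genes described next did not pass.

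**Figure D2:**
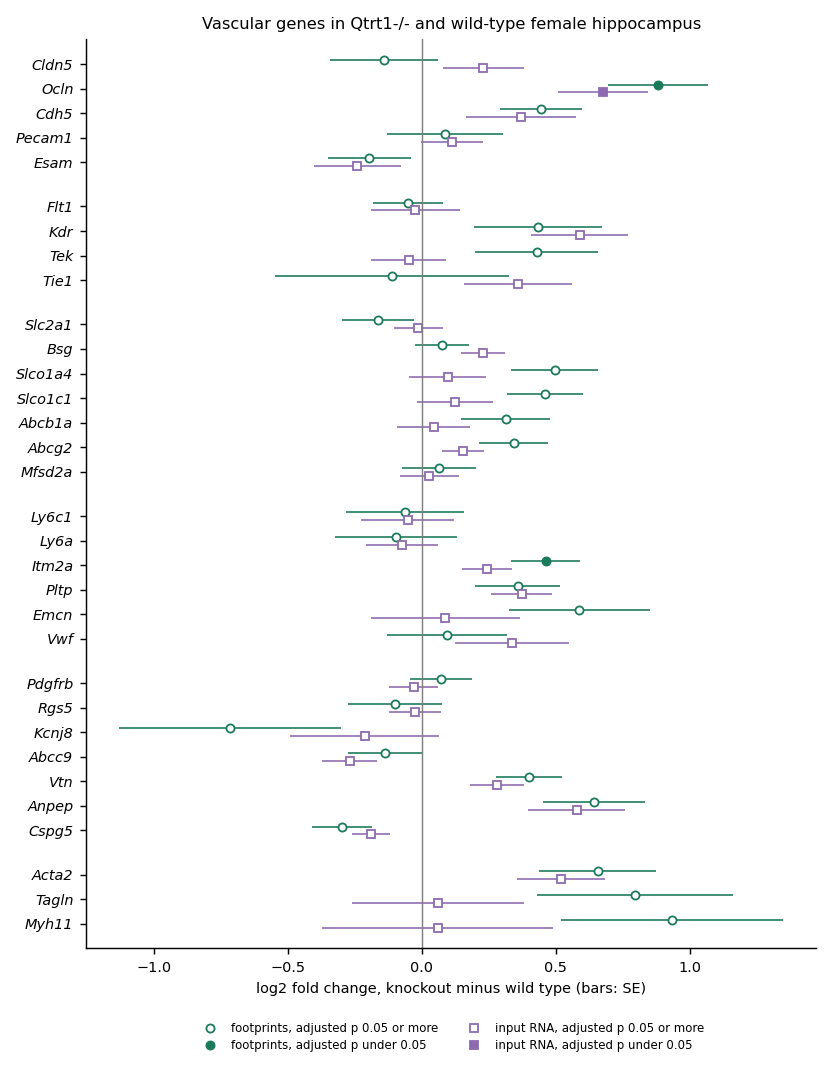
Log2 difference of each of the 32 genes, knockout females minus wild-type females, in footprints (circles) and input RNA (squares); bars are standard errors and filled symbols mark an adjusted p under 0.05. Ocln is filled in both assays and Itm2a in footprints only, and the 3 smooth muscle genes at the bottom lie right of 0 in footprints without passing.

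Among junction and adhesion genes 1 of 5 passed. Ocln had 30.1, 31.99 and 23.4 footprint CPM in knockout females, against 14.0, 16.0 and 16.3 CPM in wild-type females. All knockout females lay above all wild-type females. The log2 difference was 0.88 ± 0.19 (standard error) with an adjusted p of 0.0189 from edgeR. In input RNA Ocln had 23.7, 21.2 and 20.0 CPM in knockout females, against 9.67, 15.6 and 15.5 CPM in wild-type females, again without overlap (0.68 ± 0.17, edgeR adjusted p = 0.0482). Wild-type female 1 was the lowest library in both assays, and without it the adjusted p was 0.0890 in footprints and 0.131 in input RNA. The footprint call was also lost without knockout female 1 or 2 (adjusted p = 0.0848 and 0.0753). The input call was kept only without wild-type female 2, wild-type male 1 or wild-type male 2, and without any of the other 7 animals its adjusted p was 0.0641 to 0.185. Without wild-type females 1 and 2, the libraries lowest in choroid plexus markers, the differences were 0.82 (adjusted p = 0.220) and 0.48 (adjusted p = 0.190), with the remaining wild-type female assumed to vary like the other groups. Occludin is also a junction protein of choroid plexus epithelium, and the part of that tissue in the Ocln difference was not tested. Cldn5, by contrast, had 30.1, 21.9 and 36.7 footprint CPM in knockout females, against 33.3, 36.9 and 28.2 CPM in wild-type females. These overlapped fully (−0.14 ± 0.20, edgeR adjusted p = 0.695). Pecam1, the endothelial adhesion molecule CD31, differed by 0.09 ± 0.22 (edgeR adjusted p = 0.839). Cdh5 had 19.7, 17.2 and 19.02 CPM in knockout females, against 15.2, 11.8 and 13.9 CPM in wild-type females. Its groups were apart, and it missed the threshold (0.45 ± 0.15, edgeR adjusted p = 0.0903). Esam, an endothelial adhesion molecule, was lower in every knockout female than in any wild-type female, at 11.7, 12.1 and 12.5 CPM against 12.6, 13.9 and 15.0 CPM in the wild type, and did not pass (edgeR adjusted p = 0.457).

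None of the 4 receptor kinases passed in either assay, and in footprints 2 lay above 0 and 2 below. Flt1, the VEGF receptor that binds its ligand without strong signalling, had 27.3, 25.3 and 28.8 footprint CPM in knockout females, against 24.9, 29.9 and 29.6 CPM in wild-type females, with overlap (−0.05 ± 0.13, edgeR adjusted p = 0.839). Tek, the angiopoietin receptor Tie2, had 6.55, 5.55 and 6.64 CPM in knockout females, against 3.69, 5.62 and 4.68 CPM in wild-type females, and the groups overlapped (0.43 ± 0.23, edgeR adjusted p = 0.257). Kdr, the main signalling VEGF receptor, was higher in every knockout female in both assays without passing. Its input RNA stood at 11.5, 8.84 and 10.96 CPM in knockout females, against 7.23, 7.54 and 6.01 CPM in wild-type females (0.59 ± 0.18, edgeR adjusted p = 0.0976).

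Of the 7 transporter genes none passed, though 6 had positive differences in each assay. Slc2a1 had 160, 190 and 176 footprint CPM in knockout females, against 183, 184 and 222 CPM in wild-type females. It overlapped and was the 1 transporter below 0 in footprints (−0.16 ± 0.13, edgeR adjusted p = 0.475). Mfsd2a, a lipid transporter that limits vesicle transport across the barrier, overlapped as well (0.06 ± 0.14, edgeR adjusted p = 0.809), as did Bsg (0.08 ± 0.10, edgeR adjusted p = 0.679). Slco1a4, an organic anion transporter, had 30.3, 28.6 and 25.5 footprint CPM in knockout females, against 19.9, 20.2 and 19.9 CPM in wild-type females. Its groups lay well apart (0.50 ± 0.16, edgeR adjusted p = 0.0781), while its input RNA differed by 0.10 ± 0.15 (edgeR adjusted p = 0.775). Fitted on female libraries alone, Slco1a4 footprints had an adjusted p of 0.0178. The remaining 3 genes, the thyroid hormone transporter Slco1c1 and the efflux pumps Abcb1a and Abcg2, had footprint differences of 0.31 to 0.46.

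Of the 6 surface and secreted endothelial genes Itm2a passed in footprints. It had 123, 127 and 108 CPM in knockout females, against 89.9, 80.8 and 88.7 CPM in wild-type females. The groups did not overlap (0.46 ± 0.13, edgeR adjusted p = 0.0470). Its input RNA had 30.0, 28.3 and 30.3 CPM in knockout females, against 27.3, 21.8 and 25.6 CPM in wild-type females, also apart but not called (0.24 ± 0.09, edgeR adjusted p = 0.174). The footprint call for Itm2a was lost whichever of the 6 females was left out, with adjusted p values of 0.0571 to 0.160. Ly6c1, a surface protein of capillary endothelium, overlapped (−0.06 ± 0.22, edgeR adjusted p = 0.886), and its reads may be shared with its near copy Ly6c2. Vwf, von Willebrand factor, overlapped too (0.09 ± 0.23, edgeR adjusted p = 0.833).

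The 7 pericyte genes did not move together, with 3 above 0 and 4 below in footprints (3 and 3 without Cspg5) and none called. Pdgfrb, the PDGF receptor that marks pericytes, had 48.9, 49.3 and 51.2 footprint CPM in knockout females, against 46.0, 46.9 and 49.2 CPM in wild-type females. The ranges met, and the difference was 0.07 ± 0.11 (edgeR adjusted p = 0.735). Rgs5 overlapped as well (−0.10 ± 0.18, edgeR adjusted p = 0.755). Vtn had 82.5, 88.2 and 114 footprint CPM in knockout females, against 71.1, 73.4 and 71.1 CPM in wild-type females, without overlap (0.40 ± 0.12, edgeR adjusted p = 0.0634). Anpep, the membrane aminopeptidase CD13, had 19.1, 18.3 and 22.3 footprint CPM in knockout females, against 16.5, 8.96 and 12.6 CPM in wild-type females, also apart (0.64 ± 0.19, edgeR adjusted p = 0.0568). Without a filter on low counts both passed, Vtn with an adjusted p of 0.0416 and Anpep with 0.0267. Anpep is also expressed by meningeal fibroblasts, whose 12 markers summed to 627 to 737 CPM in knockout females, against 408 to 600 CPM in wild-type females; their part in it was not tested. Cspg5 had 297, 241 and 264 footprint CPM in knockout females, against 340, 296 and 350 CPM in wild-type females, and overlapped by 1 library pair (−0.30 ± 0.11, edgeR adjusted p = 0.111).

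The 3 smooth muscle genes had the highest group median in footprints, 0.80, and none passed. Acta2 had 16.6, 17.0 and 16.0 footprint CPM in knockout females, against 13.2, 8.79 and 9.36 CPM in wild-type females. The groups did not overlap, and the difference of 0.66 ± 0.22 had an edgeR adjusted p of 0.0804. Acta2 input RNA lay at 5.69, 6.37 and 6.75 CPM in knockout females, against 4.11, 5.14 and 3.87 CPM in wild-type females (0.52 ± 0.17, edgeR adjusted p = 0.105). Tagln differed by 0.80 ± 0.37 and Myh11 by 0.94 ± 0.41 in footprints (edgeR adjusted p = 0.189 and 0.173), from levels of 4.39 CPM or less. In input RNA the differences of Tagln and Myh11 were 0.06 each. Acta2 passed in females fitted alone, with an adjusted p of 0.0266, and without the filter on low counts, with 0.0383.

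**Figure D3:**
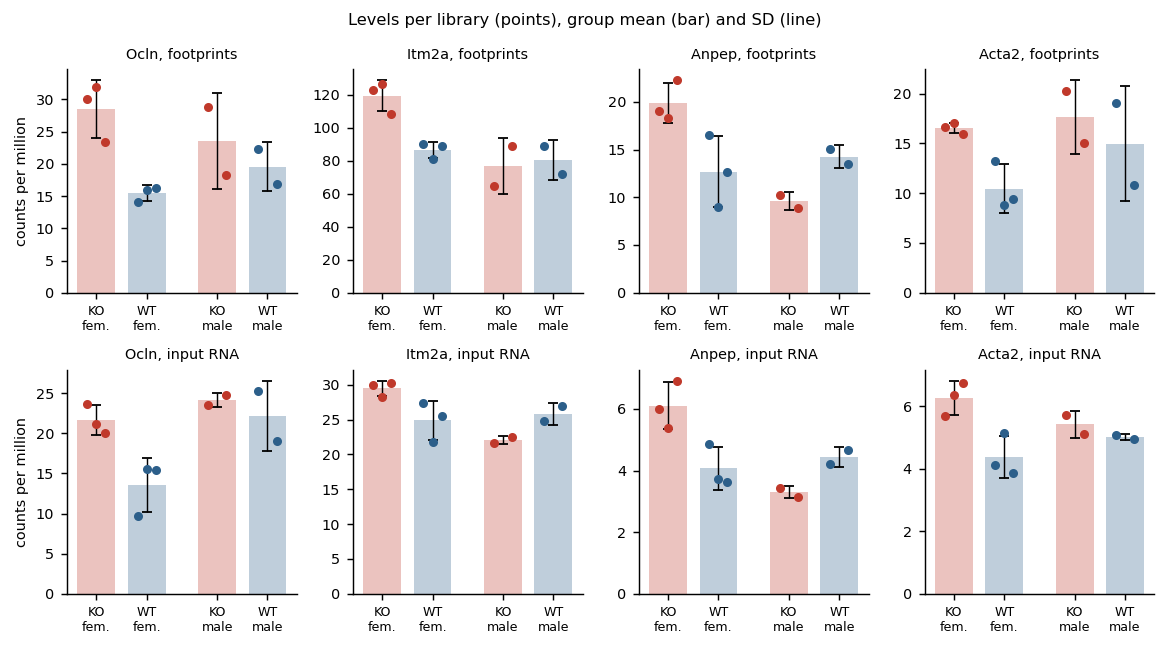
CPM of Ocln, Itm2a, Anpep and Acta2 in footprints (top) and input RNA (bottom); points are libraries, bars group means and lines SD, with 3 animals per female group and 2 per male group. In females every knockout point lies above every wild-type point in all 8 panels, whereas for Anpep the male knockout points lie below the male wild-type points.

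How many genes kept the groups fully apart gives another view of the same female libraries. In footprints 11 of the 32 had every knockout female above every wild-type female, against 17.1% of all genes tested, and 1 of 32 had every one below, against 17.8%. In input RNA 10 were above, against 11.8% of all genes, and 2 were below, against 13.4%. The genes above in both assays were Ocln, Kdr, Abcg2, Itm2a, Vtn, Anpep and Acta2.

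In males 0 of the 32 genes passed edgeR's test in either assay, as did 0% of all genes. At an unadjusted p under 0.05 stood 2 of the 32 in footprints and 3 in input RNA, among 562 of 13143 and 1246 of 14164 genes. DESeq2 also called 0 of the 32 in males, and 1 and 3 of all genes. The medians were 0.04 in footprints and −0.15 in input RNA, where 22 of 32 were below 0. Without Cspg5 the medians were 0.04 and −0.14. In input RNA 11 genes had both knockout males below both wild-type males, against 18.5% of all genes tested, and 2 had both above, against 19.3%. In footprints 6 were above, against 13.2%, and 2 were below, against 13.7%. Ocln had 28.9 and 18.3 footprint CPM in knockout males, against 22.2 and 16.9 CPM in wild-type males, so the genotypes overlapped, although the knockout was the higher of both pairs of the same age. Itm2a had 64.8 and 88.6 CPM in knockout males, against 88.8 and 71.6 CPM in wild-type males, also with overlap, and the pairs of the same age went opposite ways.

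The difference between the sexes in the knockout effect was tested directly, as the female difference minus the male difference. No member passed in either assay, as did 0% of all genes, with 4 of the 32 at an unadjusted p under 0.05 in footprints and 5 in input RNA, among 1109 and 1339 of all genes. DESeq2 called 0 of the 32 as well, and 26 and 37 of all genes. The lowest p in footprints was that of Anpep, which had 10.3 and 8.91 CPM in knockout males, against 15.1 and 13.4 CPM in wild-type males, the opposite order to females. Its difference of differences was 1.22 ± 0.31 in footprints (edgeR adjusted p = 0.319) and 1.01 ± 0.30 in input RNA (edgeR adjusted p = 0.339). As the mean of both sexes, 0 of the 32 genes passed in either assay. Over all genes 0.00761% passed in footprints and 0.734% in input RNA, of which 0.0918% were higher and 0.642% lower. Among the 32, 7 in footprints and 6 in input RNA had an unadjusted p under 0.05, among 2576 of 13143 and 2497 of 14164 genes. DESeq2 called 1 of the 32 in each assay. Over all genes it called 451 in footprints and fewer in input RNA, in both assays more than edgeR called. Translational efficiency, which relates footprints to the RNA available, was compared between knockout and wild type with all 20 libraries in 1 fit. None of the 32 genes passed, as did 0% of all 14146 genes, and 2 of the 32, Slco1a4 and Abcc9, had an unadjusted p under 0.05, among 1458 of all genes. DESeq2 called 0 of the 32 and 27 of all genes. Neither fit used the fact that each animal gave both a footprint and an input library. With the animal as block edgeR called 0 of the 32 and 114 of all 14146 genes.

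Wild-type males were set against wild-type females to show how far these genes differ between animals of 1 genotype. In footprints 2 of the 32 were higher in males and 2 lower, against 16.5% of all genes tested, 7.27% higher and 9.25% lower. In input RNA 4 were higher and 1 lower, against 14.2% of all genes, 5.45% higher and 8.78% lower. The comparison uses the same wild-type females as the comparison with knockout females.

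**Figure D4:**
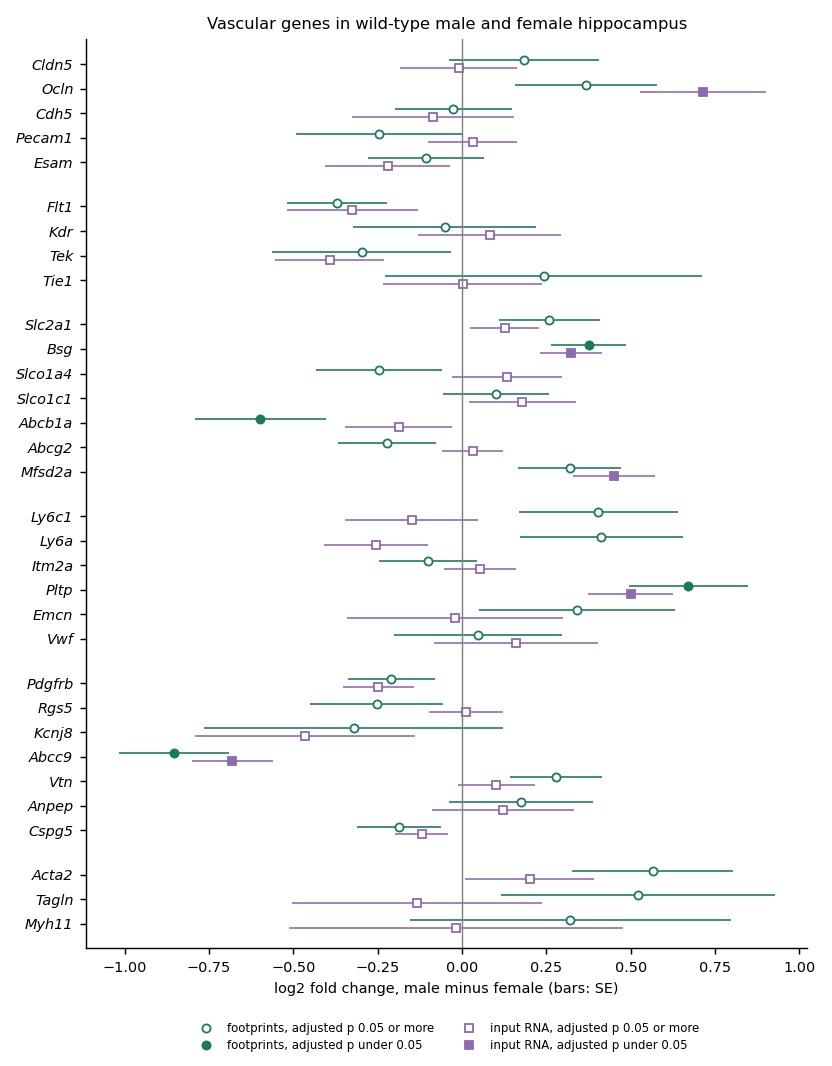
Log2 difference of each of the 32 genes, wild-type males minus wild-type females, in footprints (circles) and input RNA (squares); bars are standard errors and filled symbols mark an adjusted p under 0.05. Abcc9 is the lowest filled gene in both assays and Pltp and Bsg are filled to the right of 0 in both.

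Abcc9, the sulfonylurea-receptor subunit of the potassium channel of pericytes, had 11.1 and 11.8 footprint CPM in wild-type males, against 21.6, 20.2 and 20.1 CPM in wild-type females. Both males lay far below all females (−0.85 ± 0.16, edgeR adjusted p = 0.00472). Its input RNA had 11.8 and 11.7 CPM in males, against 18.95, 18.5 and 19.1 CPM in females, with the same order (−0.68 ± 0.12, edgeR adjusted p = 0.00397). Knockout males, at 12.4 and 14.5 footprint CPM, were also below knockout females, at 18.8, 21.2 and 16.4 CPM. The call for Abcc9 was kept in both assays whichever 1 animal was left out. Kcnj8, the pore subunit of the same channel and its neighbour in RefSeq's GRCm38.p6 annotation, differed by −0.32 ± 0.44 in footprints and was not called (edgeR adjusted p = 0.662). Abcb1a had 17.2 and 11.2 footprint CPM in wild-type males, against 21.2, 26.4 and 19.3 CPM in wild-type females, without overlap (−0.60 ± 0.19, edgeR adjusted p = 0.0495). It was not called in input RNA, and its reads may be shared with Abcb1b. The footprint call was kept only without wild-type female 3 or wild-type male 1.

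Pltp had 215 and 265 footprint CPM in wild-type males, against 116, 142 and 194 CPM in wild-type females, without overlap (0.67 ± 0.18, edgeR adjusted p = 0.0215). Its input RNA had 51.1 and 55.9 CPM in males, against 32.9, 37.5 and 43.1 CPM in females (0.50 ± 0.13, edgeR adjusted p = 0.0219). Bsg had 907 and 1117 footprint CPM in wild-type males, against 734, 839 and 766 CPM in wild-type females, also apart (0.38 ± 0.11, edgeR adjusted p = 0.0350). Its input RNA differed by 0.32 ± 0.09 (edgeR adjusted p = 0.0374). Ocln was called in input RNA, at 25.3 and 19.1 CPM in males, against 9.67, 15.6 and 15.5 CPM in females (0.71 ± 0.19, edgeR adjusted p = 0.0261), and not in footprints (edgeR adjusted p = 0.249). Mfsd2a was called in input RNA as well, at 17.5 and 20.6 CPM in males, against 14.8, 14.3 and 12.8 CPM in females (0.45 ± 0.12, edgeR adjusted p = 0.0296). Single animals decided these 6 calls. The adjusted p was above 0.05 without wild-type male 2 for Pltp (0.139 in footprints, 0.108 in input RNA), Bsg (0.248 and 0.204) and Mfsd2a (0.180), and without wild-type male 1 for Ocln (0.219) and Pltp input RNA (0.0554). It was so without wild-type female 1 for Pltp (0.0799 and 0.0741), Bsg (0.126 and 0.119) and Ocln (0.0555). Further losses came without wild-type female 2 for Pltp footprints (0.0551) and Bsg input RNA (0.0566), and without wild-type female 3 for Bsg footprints (0.0764) and Mfsd2a (0.0741). Without any 1 knockout female Bsg footprints had 0.0518 to 0.0545, and without knockout female 1 Bsg input RNA had 0.0531. All 13 choroid plexus markers were above 0 in the same comparison, with a median of 1.78 in footprints and 1.92 in input RNA, and all 12 striatum markers below 0, with medians of −1.98 and −1.91. Without wild-type females 1 and 2 Pltp footprints differed by 0.33 (adjusted p = 0.373) and Abcc9 footprints by −0.80 (adjusted p = 0.0934). The part of neighbouring tissue in these sex differences was not tested, and sex cannot be told apart from age.

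Footprints were then set against input RNA within wild-type animals, where 20 of the 32 genes had relatively more footprints and 3 fewer, against 75.3% of all 14146 genes, 37% higher and 38.3% lower. The median log2 ratio was 0.65 for the 32 genes, with or without Cspg5, and −0.01 over all genes. Ratios also carry the lengths of the parts that are not translated, since footprints come from coding sequence and input reads from the whole transcript. The sources used here do not say whether counting was limited to coding sequence. Highest of the 32 were Pltp at 2.28 ± 0.12, Slc2a1 at 2.19 ± 0.10 and Itm2a at 1.93 ± 0.10 (edgeR adjusted p = 1.18e-12, 6.8e-14 and 3.57e-13). Slc2a1 had 183, 184, 222, 196 and 276 footprint CPM in the 5 wild-type animals, against 50.9, 48.6, 56.0, 53.1 and 60.1 input CPM in the same animals, so every animal showed the excess. Anpep stood at 1.87 ± 0.15, Acta2 at 1.65 ± 0.16 and Bsg at 1.44 ± 0.07 (edgeR adjusted p = 5.69e-10, 1.24e-08 and 4.76e-13).

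**Figure D5:**
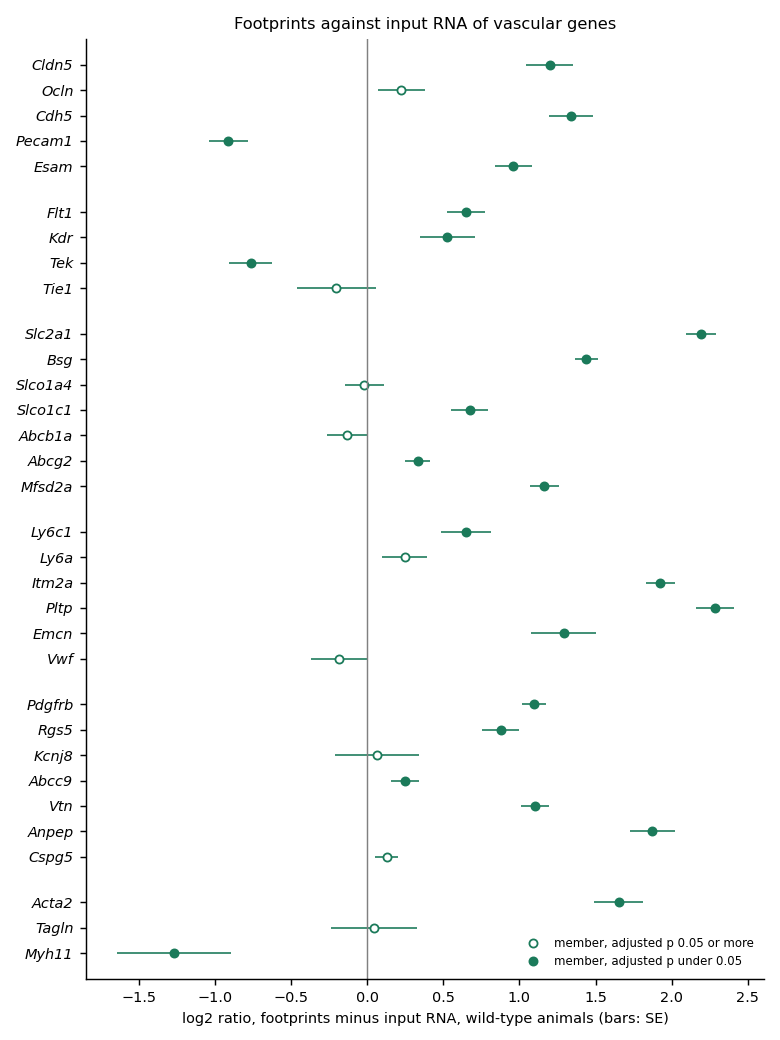
Log2 ratio of footprints to input RNA for each of the 32 genes over the 5 wild-type animals; bars are standard errors and filled circles mark an adjusted p under 0.05. Pltp, Slc2a1 and Itm2a lie furthest right, and Pecam1, Tek and Myh11 are the filled genes left of 0.

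Genes with the same role differed in this ratio. Of the junction genes Cdh5 (1.34 ± 0.15), Cldn5 (1.2 ± 0.15) and Esam (0.96 ± 0.12) were higher in footprints, Ocln was not called (0.23 ± 0.15) and Pecam1 was lower (−0.91 ± 0.13, edgeR adjusted p = 2.2e-06). Pecam1 had 6.47, 6.85, 6.52, 5.60 and 5.52 footprint CPM in the 5 wild-type animals, against 12.6, 12.5, 14.1, 12.5 and 14.1 input CPM. Of the receptor kinases Flt1 (0.65 ± 0.13) and Kdr (0.53 ± 0.18) were higher, Tie1 was not called and Tek was lower (−0.76 ± 0.14, edgeR adjusted p = 6.2e-05). Of the transporters Mfsd2a (1.16 ± 0.10), Slco1c1 (0.67 ± 0.12) and Abcg2 (0.33 ± 0.08) joined Slc2a1 and Bsg on the higher side, and Slco1a4 and Abcb1a were not called. Emcn, the endothelial mucin endomucin (1.29 ± 0.21), and Ly6c1 (0.65 ± 0.16) were higher, and Ly6a and Vwf were not called. Of the pericyte genes Pdgfrb (1.10 ± 0.08), Vtn (1.10 ± 0.09), Rgs5 (0.88 ± 0.12) and Abcc9 (0.25 ± 0.09) were higher besides Anpep, and Kcnj8 and Cspg5 were not called. Smooth muscle genes split 3 ways, with Acta2 higher, Tagln not called (0.04 ± 0.28) and Myh11 lower (−1.27 ± 0.38, edgeR adjusted p = 0.00492). Myh11 rests on few counts, at 0.567 to 1.29 footprint CPM in wild-type animals. Its call was lost without wild-type male 1 (adjusted p = 0.133), as were those of Kdr (0.0507) and Abcc9 (0.0664), and that of Abcc9 also without wild-type male 2 (0.0789).

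The pathways that act on these cells were read from further lists, chosen with earlier results of these data known. Their counts stand beside 2.81% of all genes higher and 4.25% lower in footprints, and 0.748% higher and 2.73% lower in input RNA, and nothing particular to a list is read from them. Among 26 other endothelial genes tested in footprints of knockout females, 1 was higher and 0 lower, and among 28 tested in input RNA 0 were higher and 2 lower. Cgnl1, a junction scaffold, differed by 1.23 ± 0.30 in footprints (edgeR adjusted p = 0.0298). In input RNA Cd34, a sialomucin of endothelium, differed by −0.70 ± 0.15 and Tfrc, the transferrin receptor, by −0.39 ± 0.09 (edgeR adjusted p = 0.0340 and 0.0366). None of 15 other mural genes in footprints or 16 in input RNA passed. Of the genes of VEGF, angiopoietin and Notch signalling 1 of 14 was higher in footprints, the lymphatic growth factor gene Vegfc (1.13 ± 0.28, edgeR adjusted p = 0.0339), and 2 of 15 in input RNA. These were the Tek ligand gene Angpt1 (0.86 ± 0.17, edgeR adjusted p = 0.0215) and the Flt1 ligand gene Pgf (2.31 ± 0.51, edgeR adjusted p = 0.0333). Of 12 genes of the Wnt signal that maintains the barrier, Fzd4, a receptor for it, was higher in footprints (0.69 ± 0.19, edgeR adjusted p = 0.0444). Of the genes of PDGF and TGF-beta signalling to mural cells 2 of 10 were lower in footprints, Acvrl1, an endothelial TGF-beta family receptor (−0.73 ± 0.20, edgeR adjusted p = 0.0442), and Mrtfa, a coactivator of smooth muscle genes (−0.57 ± 0.13, edgeR adjusted p = 0.0220). In input RNA Acvrl1 was lower again and Tgfb2 higher (0.89 ± 0.19, edgeR adjusted p = 0.0307).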

How the data were processed

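The authors deposited a table of raw counts, with no scaling, that covers 18054 gene symbols and 20 libraries. Codon tables of the 10 footprint libraries hold, per the file headers, coverage as counts of footprints per codon, single-codon occupancy as a ratio, and the covered share of the coding sequence as a percent. Within an mRNA and library the deposited ratio was proportional to coverage (within 1%, 175 of 175 cases with 2 or more codons), so coverage was used. Tools named in the submitters' processing notes are SAMtools 0.1.19, Bowtie 1.2.2, Bowtie 1.0.0, Trimmomatic 0.39 and cutadapt 1.8.1, in no stated order. The sources used here do not give the genome build, the counting program, its strand setting or any use of molecular identifiers. Reads of near-identical or overlapping genes therefore cannot be assigned with certainty.

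Counts were tested with edgeR 4.0.16 in R 4.3.3 (TMM, filterByExpr over the 4 groups of sex and genotype, quasi-likelihood F tests), with Benjamini-Hochberg adjustment over all genes tested at 0.05 and standard errors from the F statistic. Footprint and input libraries were fitted separately, and translational efficiency and footprints against input RNA in 1 fit of 8 groups. CPM are TMM-scaled. All 32 genes passed the filter in both assays. Scripts were tested on simulated data. DESeq2 1.42.0, DESeq2-style size factors, no filter, a block, fits of 1 sex and omitted libraries were alternatives. The block was the replicate number, or the animal where both assays were fitted together. Replicates carry separate source numbers in the labels. Their counts differed by more than sampling noise (chi-square of 3.46 to 15.1 per degree of freedom). Codon numbers count from 1 at the start codon. Values are printed for every called gene and for 17 well-known markers, and of the other lists for up to 4 called genes per comparison. The 32 genes and all lists were chosen with earlier results of these data known. The deposited codon-enrichment tables were not used here.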

Additional observations from a re-analysis of the deposited data

Results flagged for a closer look

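Anpep was flagged because every knockout female was above every wild-type female and both knockout males were below both wild-type males, in footprints and in input RNA. The female difference minus the male difference was 1.22 ± 0.31 in footprints and 1.01 ± 0.30 in input RNA, and neither passed edgeR's test over all genes (adjusted p = 0.319 and 0.339). Itm2a input RNA was flagged for the same order, at 30.0, 28.3 and 30.3 CPM in knockout females, against 27.3, 21.8 and 25.6 CPM in wild-type females. Knockout males had 21.6 and 22.5 CPM, against 24.7 and 27.0 CPM in wild-type males. Its difference of differences was 0.47 ± 0.15 (edgeR adjusted p = 0.358). Counted in each sex on its own, 17.1% of all genes had every knockout female above every wild-type female in footprints and 13.7% had both knockout males below both wild-type males, and in input RNA these shares were 11.8% and 18.5%. The share of genes with both orders at once was not counted.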

How the results depend on the processing

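Replicate numbers were not taken to pair the animals, although males of the same number were of the same age: deviations of same-numbered knockout and wild-type libraries from their group means correlated at −0.21 to −0.13 in females and −0.05 and 0.09 in males, and no female library correlated best with its own number. With the replicate number as block 1 of the 32 genes was called in female footprints and 0 in female input RNA. In the male minus female comparison 2 were called in footprints and 1 in input RNA. Where both assays were fitted together the block was the animal, which gave both libraries, and 24 were called in footprints against input RNA. The other counts stayed at 0. Over all genes the block fits called 308 in female footprints and 324 in female input RNA. They called 1303 and 1033 for males minus females and 11204 for footprints against input RNA. In female footprints 6 were called without the filter, 4 by DESeq2, 8 in females fitted alone, and 0 without wild-type females 1 and 2 (lowest choroid plexus markers) or without wild-type females 1 and 3 and knockout female 2 (highest striatum markers in an earlier analysis). In female input RNA 0 were called in females fitted alone and in both of those sets. For males minus females both sets left 0 in footprints, and 1 and 0 in input RNA. As the mean of both sexes 1 was called without the filter and 1 by DESeq2 in each assay. With 1 animal left out the counts ran from 0 to 5 in female footprints, 0 to 1 in female input RNA, 0 to 3 and 0 to 1 as the mean of both sexes, 1 to 5 and 2 to 5 for males minus females, 21 to 24 for footprints against input RNA, and stayed at 0 in males, in the difference between sexes and in translational efficiency. With 1 female left out, calls over all genes ran from 37 to 742 in female footprints and 4 to 1030 in female input RNA. As the mean of both sexes they ran from 1 to 212 and 4 to 699. For males minus females they ran from 954 to 1803 and 1148 to 1937. Footprints against input RNA had 10255 to 10582. The cause of these changes was not tested. Leaving out male libraries also made calls in female footprints, with Slco1a4 at an adjusted p of 0.0441 without knockout male 1 and Vtn, Anpep and Acta2 at 0.0467, 0.0446 and 0.0332 without wild-type male 1. Of 35 called values for single genes 22 stayed called whichever animal was left out, 20 of them footprint-to-input ratios and 2 those of Abcc9.

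In female footprints some small differences changed sign: Cldn5 to 0.086 without wild-type females 1 and 2, and Bsg to −0.054, Mfsd2a to −0.22 and Rgs5 to 0.11 without wild-type females 1 and 3 and knockout female 2. With 1 animal left out Cldn5 ran from −0.32 to 0.031, Pecam1 from −0.18 to 0.22, Mfsd2a from −0.018 to 0.17, Ly6c1 from −0.13 to 0.024, Vwf from −0.0086 to 0.27 and Rgs5 from −0.21 to 0.081. Over all genes, calls in female footprints numbered 928, against 1382 without the filter, 1849 in females fitted alone, 308 with the block, and 120 and 1 in the 2 sets. DESeq2 called 1104 of all genes in female footprints, and the fit of females alone called 452 in female input RNA. Depth limits genes with few counts, such as Myh11 and Tie1.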
